A study of Mus musculus with 2 samples.

Results

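Filip1l (ENSMUSG00000043336), which encodes filamin A interacting protein 1-like, was followed in FAPs, the fibro/adipogenic progenitors that form the stromal mesenchyme of muscle. It was taken as the row of that name in the authors' deposited table of differentially expressed genes, so it is 1 gene of the 179 listed. The FAPs came from C57BL/6 mice, were sorted, and were grown in medium with 20% fetal bovine serum. The Musclin group received 1 µM mouse recombinant Musclin and the vehicle group an equal amount of vehicle, each for 72 hours with daily changes of medium. There was 1 library per group. For the age and number of the mice and the gate of the sort, no source used here gives a value.

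Musclin, also called osteocrin and encoded by Ostn, is a peptide secreted by muscle and a ligand of Npr3, the clearance receptor of natriuretic peptides. By occupying that receptor it can leave more natriuretic peptide for the receptors Npr1 and Npr2, which make cyclic GMP. Filip1l is named for its likeness to Filip1, a protein that binds filamin A, the crosslinker of actin filaments. Its older symbol Doc1 stands for down-regulated in ovarian cancer, and in human cells the protein has been described as a brake on growth and migration. Filip1l has been proposed as a target of Musclin in FAPs, and the comparison asks whether its transcript level differs after exposure.

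Filip1l spans chr16:57353093-57573126 on the plus strand (GRCm38, GENCODE M21), a length of 220034 bp, of which 2.42% is exon. Of its 3 annotated transcripts, Filip1l-203 is the longest, with 5 exons, 4452 nt and 1131 codons. Filip1l-201 has the same exons 2 to 4 and a shorter form of exon 1 (182 nt against 366 nt), but ends in an exon of its own at chr16:57514906-57515690, which leaves 201 codons in a transcript of 1576 nt. Filip1l-202 starts from an exon of its own at chr16:57549242-57549339, and has 3253 nt and 893 codons. It joins a shorter form of the large last exon of Filip1l-203 (3155 nt against 3477 nt), with the same first base. The deposited table gives 1 level per gene, so it does not show which of these transcripts the level comes from. The junctions into the last exon tell the transcripts apart, and they are shown because each 30-base stretch occurs in 1 transcript of the 141767 in the annotation. Capitals mark the 15 bases of the last exon, on the plus strand, and the bases before them end at chr16:57513444 for the first pair and at chr16:57549339 for Filip1l-202.
Filip1l-203: gcaggaatgtgagagATTAAAGAAACTAAT
Filip1l-201: gcaggaatgtgagagAATATAAACTCTTAA
Filip1l-202: gcgcccgcagctcagATTAAAGAAACTAAT
The capitals of Filip1l-203 and Filip1l-202 are the same bases, and the lower-case bases of Filip1l-203 and Filip1l-201 are the same exon. In Filip1l-201, 785 nt (49.8%) lie in no other transcript of the gene. The other two share most of their sequence, and 11.4% of Filip1l-203 and 3.01% of Filip1l-202 are their own.

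The gene has 2 transcription starts in the RefSeq promoter table (GRCm38.p6), 195965 bp apart, and the level per gene does not tell RNA of one from RNA of the other. Bases before them are shown because the 250-base windows before the 2 starts differ in composition. The upstream start is at chr16:57353277, which is 184 bases after the first base of Filip1l. Most of its window therefore lies in the first exon of Filip1l-203, and the 2 windows are not like stretches. Of that window only the bases before any annotated exon of Filip1l are printed, at chr16:57353027-57353092, and they do not reach the upstream start. For the downstream start, at chr16:57549242, the 250 bases at chr16:57548992-57549241 are printed, and both stretches are on the plus strand.
Upstream start: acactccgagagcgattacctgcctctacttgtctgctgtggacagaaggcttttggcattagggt
Downstream start: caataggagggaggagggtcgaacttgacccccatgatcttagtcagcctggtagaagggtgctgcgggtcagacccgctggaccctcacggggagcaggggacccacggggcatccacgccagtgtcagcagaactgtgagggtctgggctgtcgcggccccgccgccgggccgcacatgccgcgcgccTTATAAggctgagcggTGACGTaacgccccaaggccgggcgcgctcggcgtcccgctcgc
The full 250 bases before the upstream start held 6 CG dinucleotides and 51.2% G and C, against medians of 6 and 52.4% over 32851 windows of the same length. The downstream window held 25 CG dinucleotides and 68.8% G and C, and 89.3% of the windows held fewer CG dinucleotides. Capitals mark matches, on either strand, to TATAA (found in 22.8% of all windows) and TGACGT (6.47%). The TATAA matches on the 2 strands overlap, and begin 60 and 59 bases before the downstream start. CCAAT (33.9% of all windows) and GGGCGG (32.7%) had no match before either start. Before the upstream start a single TATAA match, on the minus strand, begins 54 bases upstream and lies in the first exon of Filip1l-203. These motifs were chosen after the sequences were seen, and a match is not a bound site.

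Cmss1, the homologue of a yeast protein of the small ribosomal subunit pathway, is annotated on the minus strand at chr16:57302000-57606864 and contains the whole span of Filip1l. The sources used here do not say whether the libraries were stranded, so overlap was measured on exons. No exonic base was shared: 0 of the 5335 exonic bases of Filip1l lay in an exon of Cmss1. Inside the span of Filip1l lie 2 exons of Cmss1, and the smallest gap between an exon of each gene was 7887 bases. Reads from spliced RNA of either gene therefore fall on exons of that gene alone in this annotation. But every Filip1l exon lies in intronic sequence of Cmss1. Without the strand, reads from unspliced Cmss1 RNA over these exons cannot be told from Filip1l reads, and intronic reads cannot be assigned. Which annotation release lies behind the deposited levels is not given in the sources. Cmss1 was not among the listed genes, so its level was not analysed here.

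**Figure D1:**
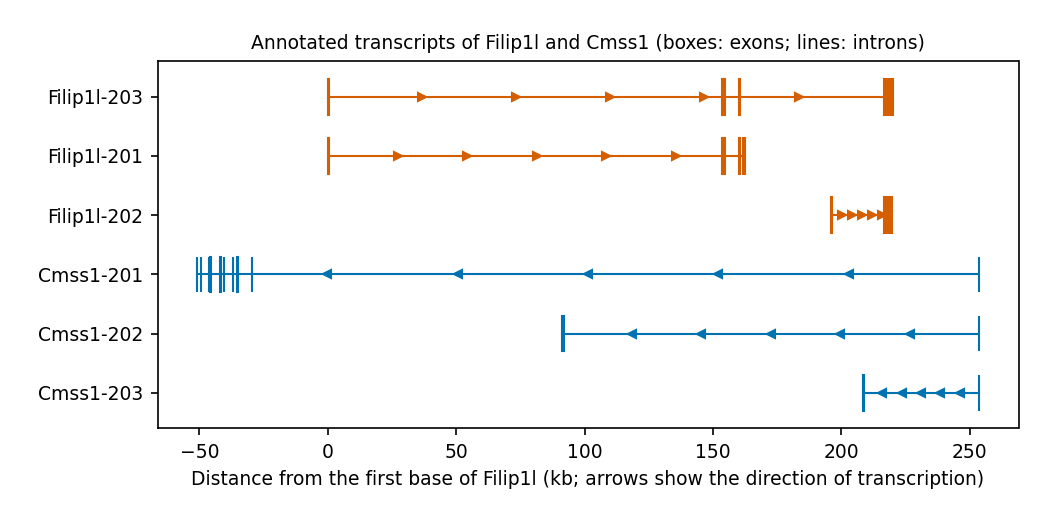
Annotated transcripts of Filip1l (orange, plus strand) and Cmss1 (blue, minus strand) against the distance in kb from the first base of Filip1l, with exons as boxes drawn no thinner than the outline. All 3 Filip1l transcripts lie inside the span of Cmss1, and 2 Cmss1 exons fall in Filip1l introns.

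The level of Filip1l was 2890 in the vehicle library and 6134 in the Musclin library. The Musclin library was thus the higher of the pair, by 3245 in level. The ratio of the levels was 2.12, or 1.09 on the log2 scale. In the authors' deposited table the fold is 2.07 (1.05 on the log2 scale), with p and adjusted p both printed as 0. That p compares these 2 libraries and not the conditions, and with 1 library per group no spread between cultures and no test of the conditions can be had. The unit of the levels is not stated in the file header. RSEM, named in the submitters' processing notes, gives TPM and FPKM, which are both per transcript length, and levels of different genes are set side by side here on that understanding. In a bulk sample, more cells that express a gene and more RNA per cell cannot be told apart.

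Filip1l was 1 of 116 genes listed as higher with Musclin, which were 0.500% of the 23180 genes the authors tested. The listed genes in either direction were 0.772%. By level it ranked 2 of 179 with vehicle and 3 of 179 with Musclin. Among the 86 protein-coding listed genes it ranked 1 with vehicle and 2 with Musclin, where Tmtc2 was above it. For the higher genes the median level was 0.49 with vehicle and 2.40 with Musclin, so Filip1l stood far above most genes of its direction in both libraries. Of the levels of the 179 genes added up, Filip1l made 26.0% with vehicle and 23.7% with Musclin. Its difference between the libraries was 21.2% of the summed difference of the higher genes, which came to 15316 in level.

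**Figure D2:**
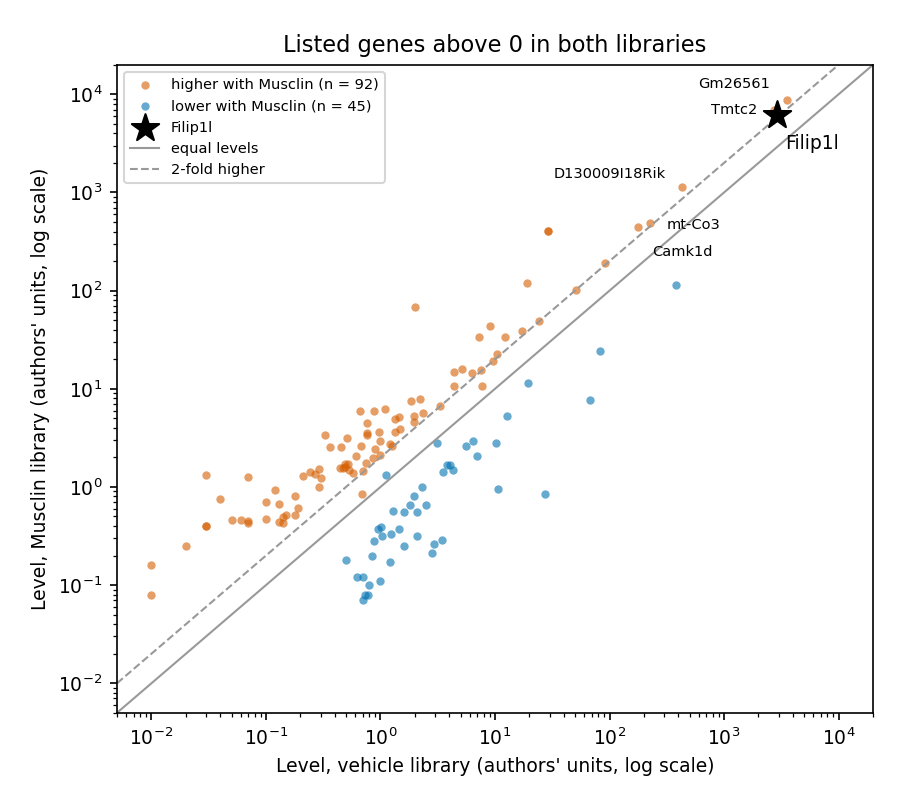
Levels in the vehicle library (x axis) and the Musclin library (y axis), in the authors' units on log scales, for the 138 listed genes above 0 in both, each point 1 gene. Filip1l (star, 2890 and 6134) sits at the upper end just above the dashed line of a 2-fold ratio, beside Tmtc2 and Gm26561.

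In size of change, Filip1l was near the lower end of its direction. By the ratio of levels it ranked 83 of the 93 higher genes above 0 in both libraries, whose median ratio was 3.50. By the fold in the authors' deposited table it ranked 111 of 116, where the lowest fold was 2.01 and the median 4.56. Only genes past the authors' limits are in the table, so this order says nothing about genes that were not listed. The neighbours in the order of ratio were Gm20427 (2.14, from levels of 1.00 and 2.14) and Gm26724 (2.11, from 1.25 and 2.64), both at levels far below that of Filip1l. In the order of the fold in the authors' deposited table, Gm37206 (2.11) came just above and AC116841.1 (2.07) just below. By p, Filip1l itself instead ranked 1 of 179, and it was the 1 gene with a p printed as 0 in the authors' deposited table.

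**Figure D3:**
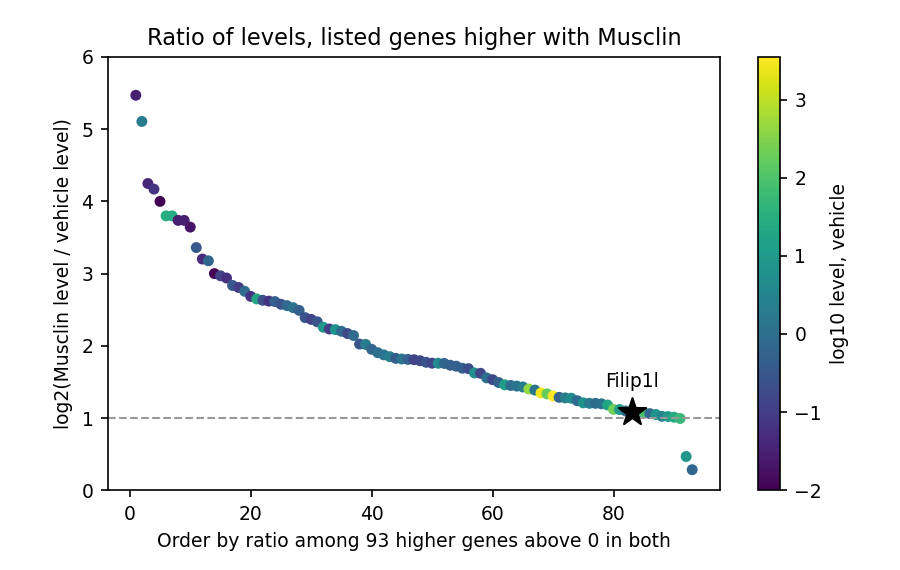
The log2 ratio of levels (y axis) for the 93 higher genes above 0 in both libraries, in descending order (x axis), each point 1 gene coloured by log10 of its vehicle level. Filip1l (star) is in place 83 at 1.09, close to the dashed line of a 2-fold ratio.

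The 5 listed genes most like Filip1l were those nearest to it on log2(level + 1) over the 2 libraries. The nearest was Tmtc2, which encodes an endoplasmic reticulum membrane protein and lies on chromosome 10, at a distance of 0.19. Tmtc2 was at 2709 with vehicle and at 6888 with Musclin, a ratio of 2.54. Next was the long noncoding RNA Gm26561 on chromosome 17, at a distance of 0.58, with levels of 3520 and 8695 and a ratio of 2.47. Tmtc2 was 0.937 times the level of Filip1l with vehicle and 1.12 times with Musclin, so their order was exchanged between the libraries. Gm26561 was above Filip1l in each library, at 1.22 and 1.42 times its level. All other listed genes were much lower. The long noncoding RNA D130009I18Rik had levels of 433 and 1145 at a distance of 3.65. The mitochondrial gene mt-Co3, a subunit of cytochrome c oxidase, had 225 and 489, and the kinase gene Camk1d had 176 and 443, at distances of 5.18 and 5.53. Filip1l had the smallest ratio of these 6 genes, against 2.17 for mt-Co3, 2.52 for Camk1d and 2.64 for D130009I18Rik. With 1 library per group it cannot be said whether these ratios differ beyond their spread.

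**Figure D4:**
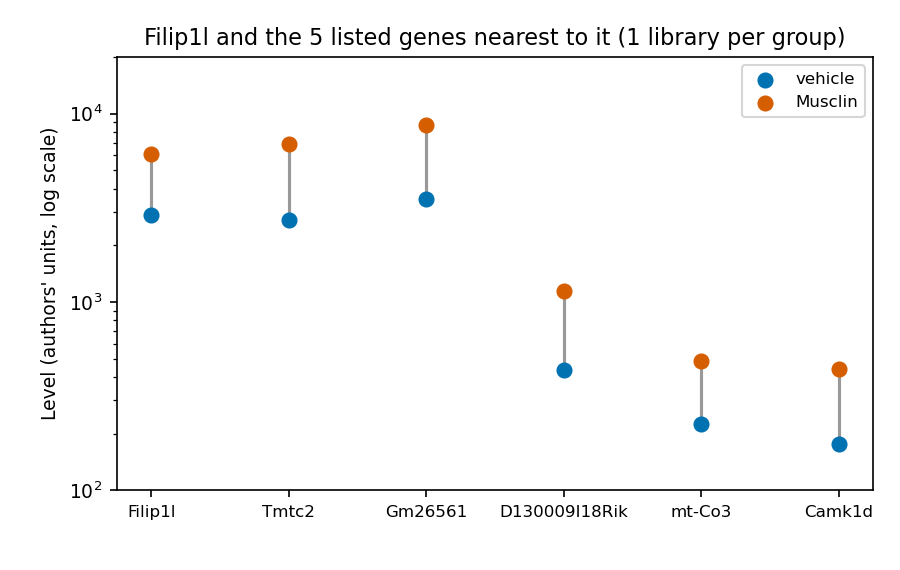
Levels with vehicle (blue) and Musclin (orange), in the authors' units on a log axis, of Filip1l and the 5 listed genes nearest to it, each point 1 library and with no error bar because there was 1 library per group. Filip1l, Tmtc2 and Gm26561 form the upper 3, and the Musclin point is the higher in all 6. The genes were chosen by closeness in both levels, which favours a shared direction.

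Filip1l shared a long span with most of these genes. It had the 6th longest span of the 179 listed genes, whose median was 4433 bp, and the median of the protein-coding ones was 16353 bp. The longer ones were Agbl1 (894812 bp, listed at 0 with vehicle and at 7.92 with Musclin), Gm26561 (515207 bp), Camk1d (421059 bp), Tmtc2 (386789 bp) and D130009I18Rik (353993 bp). So 5 of the 6 longest genes, Filip1l included, held places 1, 2, 3, 4 and 7 by vehicle level. The gene next in span, Gm26694 (169891 bp), was lower with Musclin, at levels of 0.71 and 0.07. Gene span was compared after the levels were known, mt-Co3 has a span of only 784 bp, and the part of span in these levels was not tested.

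**Figure D5:**
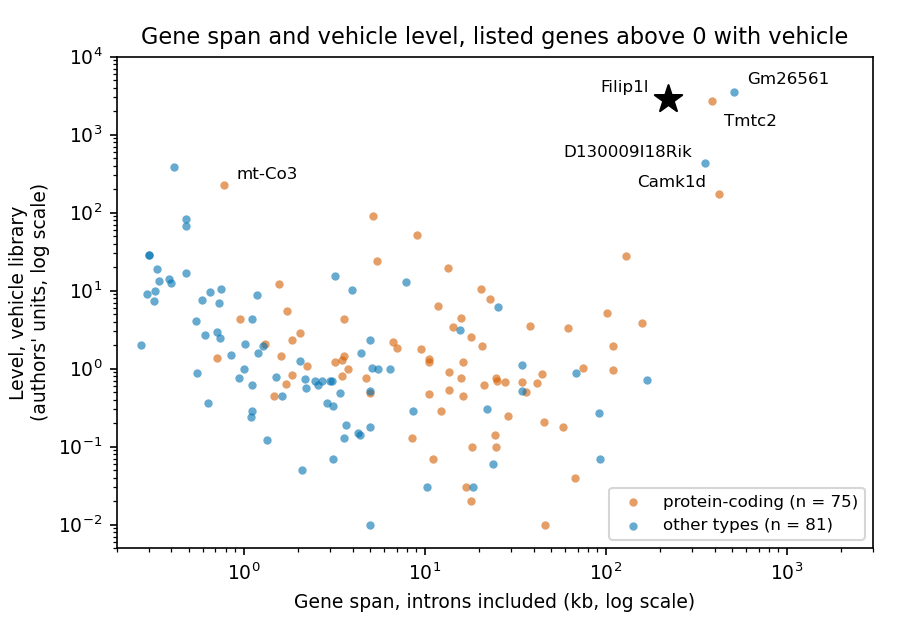
Gene span in kb, introns included (x axis, log scale), against the level in the vehicle library in the authors' units (y axis, log scale) for the listed genes above 0 with vehicle, 75 protein-coding (orange) and 81 of other types (blue). Filip1l (star), Gm26561, Tmtc2, D130009I18Rik and Camk1d lie together at the upper right.

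The opposite-strand genes that overlap the span of Gm26561, in whole or in part, include Emilin2, Myl12a, Myl12b and Smchd1. Of the exonic bases of Gm26561, 87.0% overlapped exons of its opposite-strand genes, a share not divided by gene, and for Tmtc2 the share was 2.12%. For Filip1l, D130009I18Rik, mt-Co3 and Camk1d it was 0%, so Filip1l shared this with 3 of its 5 nearest genes. No transcript of another gene matched Filip1l at 90% identity over 50 nt or more, and none of the 356 annotated ribosomal RNA transcripts did. Its closest relative, Filip1, aligned in stretches of 54 to 331 nt at 65.8% to 79.6% identity (E value of 0.01 or less). Filip1l therefore has no near-identical annotated transcript with which its reads would be divided. Introns were not searched, because no genome sequence was used here. Ribosomal RNA sequence outside this annotation was not searched either.

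For Filip1l the log2 fold of the authors' deposited table minus the log2 ratio of its levels was -0.04. The 78 genes above 0 with 1 annotated transcript had quartiles of -0.01 and 0.01 for this difference, and the 60 with more transcripts had -0.20 and 0.09. Filip1l, with 3 transcripts, lay within the quartiles of the second set and outside those of the first. Among its nearest genes, Tmtc2 (6 transcripts) had -0.20, Camk1d (4) had -0.12 and D130009I18Rik (4) had -0.04. With 1 transcript each, Gm26561 had -0.08 and mt-Co3 had 0.005. Whether the difference follows the number of transcripts was not tested.

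Within 2 Mb of its span lie 101 other annotated genes, 56 of them protein-coding and 32 named as olfactory receptors, and 0 were listed. At the overall share of 0.772% listed, a count of 0 among so few genes is near the background. They include Col8a1, a collagen gene that lies beyond the start of Cmss1, and Cmss1 itself. The nearest listed gene on chromosome 16 was 9430053O09Rik, 19.8 Mb away, which was lower with Musclin at levels of 0.62 and 0.12. The other 6 listed genes of the chromosome were higher, among them the interferon-induced Mx1 and Mx2, 39.9 and 40.0 Mb away.

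Of the 18 genes of the list of filamins and their partners, Filip1l was the 1 listed, and 17 were not, among them Flna, which encodes filamin A, and the relative Filip1. Of 18 genes of Musclin and natriuretic peptide signalling, 0 were listed, including Ostn, the receptors Npr1, Npr2 and Npr3 and the cyclic GMP-dependent kinase Prkg1. The lists for the processes that FILIP1L has been tied to in human cells also had no listed member: 0 of 34 for apoptosis, 0 of 25 for proliferation and 0 of 28 for Wnt and beta-catenin. A gene that is not listed missed the authors' limits or was not analysed here, and is not shown to be unchanged. The count of 1 for the filamins and their partners was fixed beforehand, because Filip1l was taken from the listed genes, and it is not a result about that list. With 0.772% of all tested genes listed, counts of 0 in lists of this size are near the background and say nothing particular of them.

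The labelled cell type could not be checked, because 0 of 10 FAP markers, such as Pdgfra, were in the table and their levels were not analysed here. Markers of macrophages (0 of 5), endothelial cells (0 of 4) and myogenic cells (0 of 5) were not listed either, and for such short lists 0 is also near the overall share of 0.772%. Of 6 erythroid markers, 3 hemoglobin genes were higher in the same library as Filip1l, with levels of 12.3 and 33.9 for Hbb-bs, 4.39 and 14.9 for Hba-a1, and 0.45 and 2.53 for Hbb-bt. Hbb-bt, with an adjusted p of 0.0405 in the authors' deposited table, would not pass a limit of 0.01. Their summed level was 17.15 with vehicle and 51.2 with Musclin, far below that of Filip1l, and their part in the result was not tested.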

How the data were processed

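RNA sequencing of 1 Musclin and 1 vehicle culture was analysed from the authors' deposited table of 179 genes. Per the file headers it holds the authors' fold (a ratio, Musclin over PBS, taken as the vehicle), the log2 of that fold, the p-value and its adjusted form, and for each library an expression signal, called the level here. Per the submitters' processing notes, RSEM, edgeR and GRCm38.p5 were used, with no version or role. The sources used here do not give aligner, filters, scaling or depth, so no counting interval was set.

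The ratio of levels was taken without a pseudocount. The number of tests, 23180, makes p times that number over adjusted p whole, within 0.001, for all 178 genes with p above 0, a procedure tested on simulated data. Gene models came from GENCODE M21, where all 179 gene IDs were found. Alignments used BLAST+ 2.17.0 (blastn), figures used matplotlib 3.10.9, and tables used numpy 2.4.6 and pandas 2.3.3 under Python 3.11.15. The members, lists and rules were chosen with earlier results of these data known. Named were Filip1l, Cmss1, Ostn and its receptors, the 5 nearest listed genes, neighbours in rank, listed genes within 2 Mb, and listed members of the lists. Any other gene was chosen after its values were seen. Alternatives were other pseudocounts, folds, sets ranked, exon sets, alignment limits, measures of likeness and adjusted p limits.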

Additional observations from a re-analysis of the deposited data

How the results depend on the processing

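The direction of Filip1l was the same in every alternative, but it could not have been otherwise. Adding the same pseudocount to both levels cannot change the sign, and the authors' fold belongs to a gene already listed as higher. The log2 ratio of Filip1l, 1.09, was 1.08 with a pseudocount of 5 and 1.05 as the log2 fold of the authors' deposited table. Its rank of 2 by vehicle level became 1 among protein-coding genes, 1 among genes with an ordinary symbol, 3 by Musclin level and 3 by the mean of both. Its rank of 83 by ratio was 61 of 70 among genes with a level of 1 or more, and 111 of 116 by the authors' deposited fold. Its share of the summed level was 45.6% with vehicle and 42.2% with Musclin among protein-coding genes. Overlap with Cmss1 was 220034 bp by whole gene spans. By ratio alone, an alternative chosen after seeing the data, 0 of the 5 nearest genes stayed the same. Adjusted p limits of 0.01 and 0.001 left 3 of the 4 listed members of the gene lists, without Hbb-bt. These changes follow from the set or measure used. The alignment of whole gene spans was not run. No paired analysis was possible because there was 1 library per group, and no replicate could be left out.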
